A study of Equus caballus with 2 samples.

Results

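The 4 Mb of horse chromosome 11 from 26000001 to 30000000 held 998 of the 877053 CpGs that had at least 10 reads in both libraries. These members were chosen by position and depth alone, after the strands of each CpG were summed. Horse 1 gave both libraries of the study, 1 of sarcoid, a fibroblastic tumour of equine skin, and 1 of skin distant from the tumour. Methylation was read by reduced representation bisulfite sequencing, or RRBS, in which MspI fragments (cut at CCGG) of limited size are sequenced after bisulfite has turned unmethylated cytosines into T. The labels used here gave no age, sex or breed, and there was no replicate, so every difference below describes these 2 libraries and not the conditions. Tissue DNA comes from all the cells of a sample, and the cell makeup of either tissue was not measured.

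Centromeres are set by nucleosomes that carry the histone variant CENP-A, and in most mammalian chromosomes they lie on long arrays of satellite DNA. Short reads can rarely be placed in such arrays. The centromere of horse chromosome 11 is known for lying on unique sequence without satellite DNA, in a stretch poor in genes, and its CENP-A domain is known to sit at slightly different places in different horses. CpGs of satellite arrays are usually heavily methylated, and loss of that methylation has been described in tumours of other species.

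The build of the genome is not given in the sources used here. The placement of the centromere inside these 4 Mb holds if the build is EquCab2. The last position listed was 185837027 on chromosome 1 and 61265440 on chromosome 11 in both libraries. No CENP-A binding and no sequence of this build was used here, so the position of the centromere within the region was not checked, no sequence is printed and no gene is named. The region was compared with its flanks (22000001 to 26000000 and 30000001 to 34000000), with the arms, meaning the rest of chromosome 11, and with the genome. A core of 1 Mb from 27200001 to 28200000 was also described.

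Reads summed over CpG cytosines came to 35970547 in the sarcoid library and 48650606 in the skin library. In such sums, also those of the depth ratios below, a read over several cytosines counts at each of them. Inside the region, median coverage of the members was 29 reads in sarcoid and 44 in skin. A level resting on so few reads is imprecise, so Wilson 95% intervals are given for the largest changes. They cover counting error only, since PCR copies of a molecule cannot be told from separate molecules.

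The region fell into a dense first megabase and a sparse remainder. Of its 1459 listed CpGs, 1118 lay between 26000001 and 27000000 and 341 between 27000001 and 30000000. Per megabase this was 1118 CpGs in the first part and 114 in the following 3 Mb, against 933 in the flanks and 1125 in the arms. The split at 27 Mb was made after these numbers had been seen. The number of CpGs that RRBS lists depends on MspI sites as well as on CpG content, and MspI sites were not located here.

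The following 3 Mb were the emptiest stretch of their length on the chromosome. Of 59 runs of 3 neighbouring windows of 1 Mb, the run from 27000001 to 30000000 listed the fewest CpGs, and the next run that does not overlap it, from 9000001 to 12000000, listed 532. Taken singly, the windows starting at 28000001, 29000001 and 27000001 listed 85, 127 and 129 CpGs and ranked 2, 3 and 4 of 61 from the lowest. Such windows are common elsewhere in the genome: 301 of 2224 full windows listed fewer CpGs than the one starting at 28000001. The genome median was 297 per window.

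**Figure D1:**
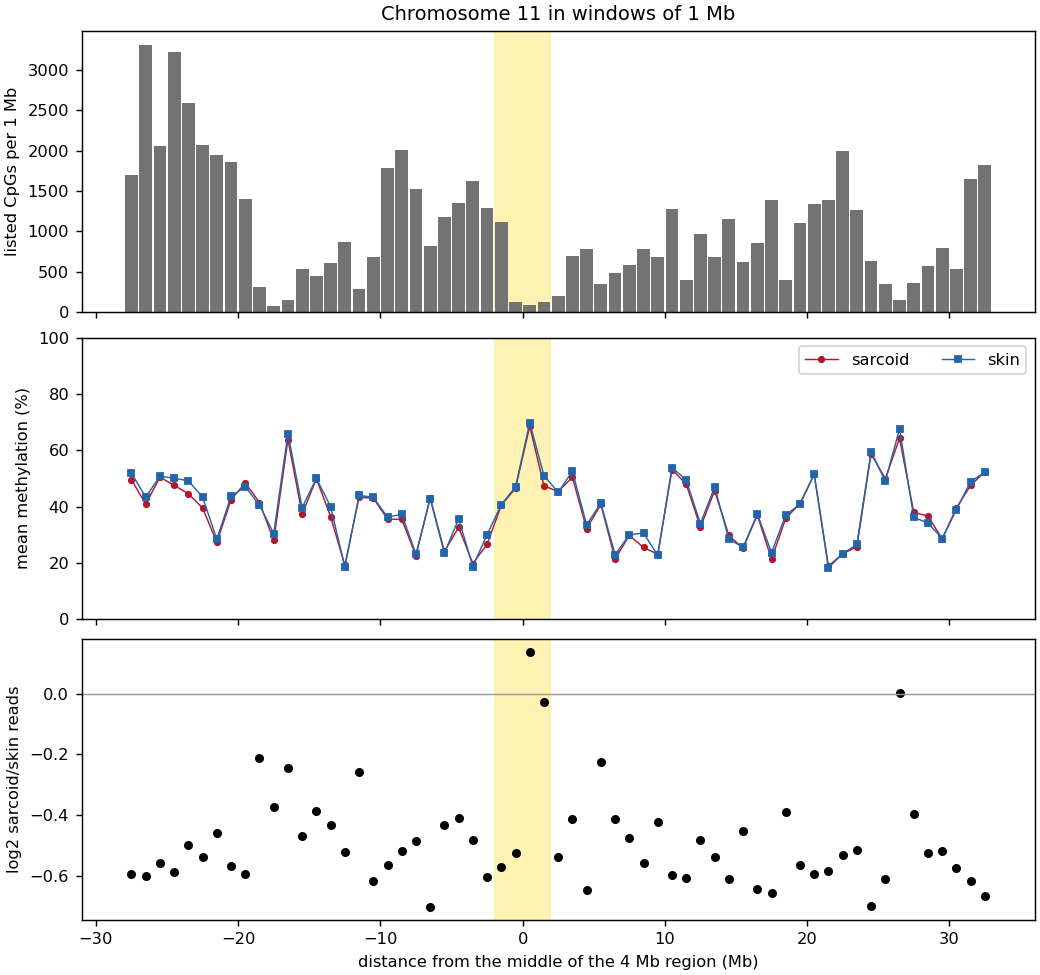
Full 1 Mb windows of chromosome 11 by distance from the middle of the 4 Mb region (shaded), showing listed CpGs, mean methylation in sarcoid (circles) and skin (squares), and the log2 depth ratio, sarcoid over skin, at CpGs listed in both. The last 3 windows of the region list 129, 85 and 127 CpGs, the levels of both libraries follow each other closely, and the 2 last windows of the region have ratios of 0.14 and -0.03, against -0.55 over the arms.

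Long gaps separated small islands of coverage in the sparse part. The widest gap between listed CpGs ran from 28514648 to 28724199 (209551 bp) and was the 5th widest of the chromosome. A gap of 173468 bp followed from 29130711 to 29304179, and one of 120551 bp ran from 27847774 to 27968325. Gaps of more than 100000 bp numbered 5 in these 3 Mb and 21 in the arms, which are 49.3 Mb long. CpGs within 75 bp of each other, the length of a read, formed 28 groups per megabase in the sparse part, 188 in the first megabase and 187 in the arms. A group held 4.06 CpGs on average in the sparse part, against 6.002 in the arms.

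Methylation of the region was close to that of the genome and nearly the same in both libraries. The mean level over the 998 members was 42.4% in sarcoid and 43.0% in skin, where the standard deviation over CpGs was 39.0 and 38.4 points. The mean difference, sarcoid minus skin, was -0.55 points, with a standard deviation over CpGs of 13.6 points. It was -1.12 points in the flanks, -1.16 in the arms and -1.28 over all 877053 CpGs. The median difference was 0 in each of these sets. In the region 381 members were lower in sarcoid, 393 higher and 224 equal. The direction of the mean was not stable: weighted by reads, the levels were 36.99% in sarcoid and 36.6% in skin, a difference of 0.40 points.

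Levels differed more between the dense and the sparse part than between libraries. The first megabase had a mean of 40.5% in sarcoid and 40.7% in skin over 806 CpGs. The following 3 Mb had 50.7% in sarcoid and 52.6% in skin over 192 CpGs, a difference of -1.90 points, and medians of 56.7% and 64.1%. Low levels of at most 20% were seen in sarcoid at 29.2% of the 192 CpGs (Wilson 95% interval 23.2 to 35.95) and in skin at the same share. In the first megabase that share was 45.2% (41.8 to 48.6) in sarcoid and 43.3% (39.9 to 46.7) in skin. CpGs of neighbouring positions share reads, which makes these intervals too narrow. Levels of at least 80% were held by 63 of the 192 CpGs in sarcoid and 69 in skin.

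The sign of the difference in the sparse 3 Mb depended on the weights. Each CpG counted equally gave -1.90 points, while pooled reads gave 49.2% in sarcoid and 44.0% in skin, a difference of 5.26 points. A strand was listed in 1 library only at 13.0% of the 192 CpGs, against 7.07% in the first megabase. Restricted to strands listed in both libraries and weighted equally, the difference was -1.99 points in the sparse part and -0.27 in the first megabase.

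The 4 flanking megabases before the region and the 4 after it also differed. The 3831 CpGs before it had means of 25.5% in sarcoid and 26.5% in skin. The 1353 CpGs after it had 40.7% in sarcoid and 42.0% in skin. The arms lay at 38.4% in sarcoid and 39.6% in skin. Mean levels in the sparse part were thus above those of both flanks and the arms, in either library. These means ignore CpG density. Tiles of 1 kb listing 5 or fewer CpGs held 47.9% of members in the sparse part and 22.1% in the arms. In such tiles the sparse part averaged 55.95% in sarcoid and 59.6% in skin. The arms averaged 56.1% and 57.9% there, and the first megabase 61.8% and 61.5%. In tiles listing 6 to 10 CpGs the sparse part averaged 61.7% and 61.3%, against 53.4% and 54.1% in the arms. There the first megabase averaged 55.2% and 55.8%. Differences between stretches of 1 chromosome were not tested.

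Other CpG-poor windows of the genome gave a nearer comparison. In 542 windows with 50 to 150 listed CpGs, the median of the window means was 53.7% in sarcoid and 53.9% in skin, and the middle 50% of windows in skin ranged from 39.6% to 69.0%. The window starting at 27000001 had 46.5% in sarcoid and 47.0% in skin, and that starting at 29000001 had 47.4% in sarcoid and 51.0% in skin, so that in skin both lay inside that range. The window starting at 28000001 had 68.6% in sarcoid and 69.8% in skin over 33 CpGs, above that range in skin and the highest mean of the 61 windows of chromosome 11 in both libraries. Its last 250 kb held 27 of these 33 CpGs, so the mean says little of the rest of the window. The differences of these windows, -0.51, -1.21 and -3.63 points from first to last, can be set beside a median of -0.99 in the 542 windows, where the middle 50% ranged from -2.71 to 0.62.

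**Figure D2:**
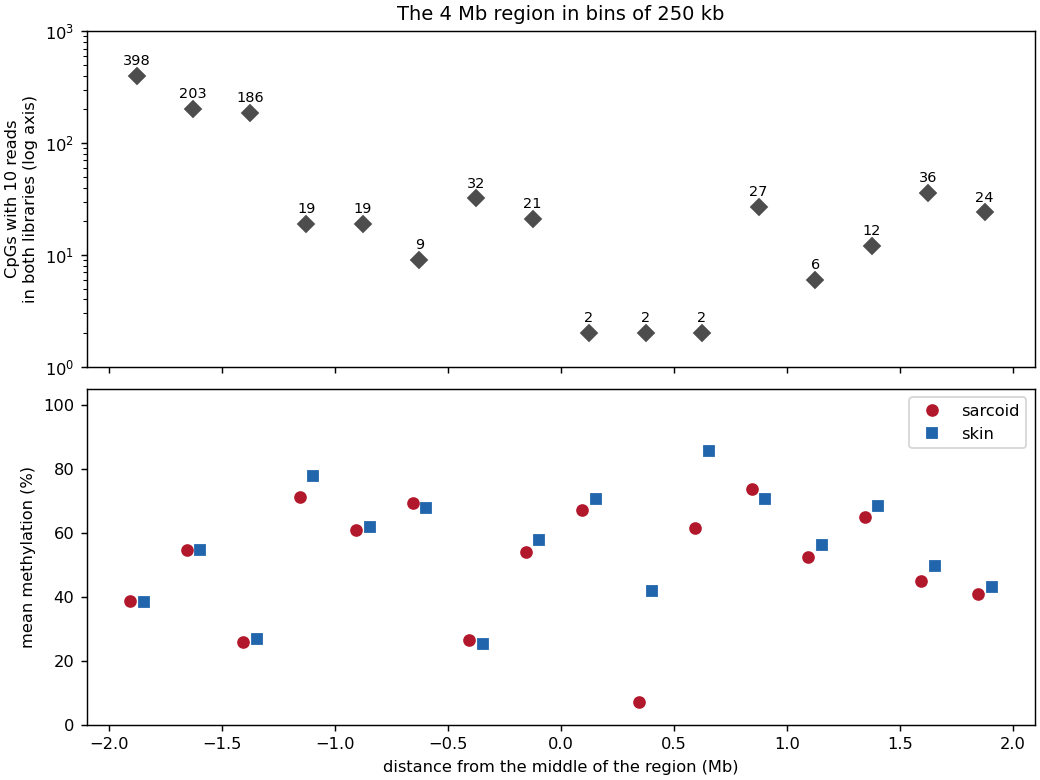
The region in 16 bins of 250 kb by distance from its middle, with the number of CpGs with 10 reads in both libraries (diamonds, log axis) and mean methylation in sarcoid (circles) and skin (squares), drawn slightly to the left and right of the bin's middle. The first 3 bins hold 398, 203 and 186 CpGs, and the 3 bins from 28000001 to 28750000 hold 2 each, among them the bins with the widest separation of the libraries.

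The bins of 250 kb showed where the levels changed. The first bin, from 26000001, averaged 38.6% in sarcoid and 38.3% in skin over 398 CpGs, and the bin from 26500001 25.97% in sarcoid and 26.9% in skin over 186. Density dropped in the bin from 26750001, which held 19 CpGs with 71.1% in sarcoid and 77.8% in skin. There 13 CpGs were lower in sarcoid and 4 higher. In the bin from 27500001 the mean was 26.6% in sarcoid and 25.3% in skin over 32 CpGs, the lowest of the sparse bins with more than 2 CpGs. The remaining bins of the sparse part with at least 6 CpGs ranged from 40.8% to 73.8% in sarcoid and from 42.9% to 70.7% in skin.

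The stretch from 28000001 to 28750000 had almost no CpGs read in both libraries. Its 3 bins listed 30, 21 and 3 CpGs, of which 8, 6 and 2 were in both libraries and 2 each reached 10 reads in both. Among these 6 CpGs the largest difference was at 28402639, with 1 of 20 reads methylated in sarcoid (5%) and 9 of 16 in skin (56.2%, a difference of -51.2 points). Its neighbours at 28402581 and 28402636 were listed in sarcoid only, at 15 of 17 and 16 of 16 methylated reads. Its neighbours on the other side, from 28402647 to 28402751, were listed in skin only. Thus 28402639, read on the plus strand alone, was the last listed CpG of its tile in sarcoid and the first in skin. In plus-strand runs of at least 3 cytosines of the sparse part, the last cytosine averaged 7.18% in sarcoid. The first cytosine of such runs averaged 62.9% in skin. The part of the unlike neighbours in this difference was not tested.

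Within the core, tiles ranged from nearly unmethylated to mostly methylated in both libraries. The core held 67 members, with a mean of 43.1% in sarcoid and 43.2% in skin, a difference of -0.09 points. Its tile with most members, from 27537001 to 27538000, listed 18 CpGs. The 14 members of that tile averaged 0.60% in sarcoid and 1.24% in skin, and no member of it exceeded 3.53% in sarcoid or 4.76% in skin. The neighbouring tile from 27538001 was also low, at 3.68% in sarcoid and 3.19% in skin over 5 CpGs. The bins on either side of the one that holds both tiles averaged 69.5% and 54.1% in sarcoid and 67.8% and 57.9% in skin.

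The other core tiles named by their number of members were methylated. The 8 CpGs of the tile from 27612001 to 27613000 averaged 79.6% in sarcoid and 75.4% in skin. Those of the tile from 27968001 averaged 74.5% in sarcoid and 73.2% in skin over 8 CpGs, and those of the tile from 27302001 75.9% in sarcoid and 73.5% in skin over 4. Another 5 of the 10 core tiles with at least 3 members were intermediate on summed reads, from 24.8% to 52.0% in sarcoid and from 36.03% to 60.3% in skin. Levels of 30% to 70% were held by 28.4% of the 67 members in sarcoid and 26.9% in skin.

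Strands of the outermost CpGs of an island disagreed. At 27612677, the first CpG of that methylated tile, the plus strand was methylated in 15 of 29 reads in sarcoid and 10 of 17 in skin, while the minus strand was methylated in 0 of 26 reads in sarcoid, which allows up to 11.5%, and 0 of 30 in skin. At 27612743, the last CpG, the plus strand was methylated in 0 of 28 reads in sarcoid and 0 of 16 in skin, and the minus strand in 24 of 27 in sarcoid and 22 of 30 in skin. The CpGs between them were methylated at 78.7% to 98.2% in either library. As background, end repair in RRBS fills the MspI overhang at the 3′ end of each strand with cytosines supplied unmethylated, so a cytosine at that end can report the added base. Whether these cytosines are such positions was not tested.

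The same order held across the sparse part. In runs of at least 3 cytosines on the plus strand, the last cytosine had a mean of 7.18% in sarcoid (37 runs) and 15.2% in skin (30 runs), against 62.1% in sarcoid and 54.4% in skin at inner cytosines. On the minus strand the first cytosine, by position, had a mean of 15.1% in sarcoid (41 runs) and 20.9% in skin (35 runs), and inner ones 62.7% in sarcoid and 59.7% in skin. Of the 37 last plus-strand cytosines, 30 were at 0 in sarcoid, and 21 of 30 were at 0 in skin. In the arms the last plus-strand cytosine averaged 27.8% in sarcoid and 32.6% in skin, against 38.8% and 39.6% at inner ones. In the first megabase the last averaged 34.8% in sarcoid and 37.7% in skin, against 40.9% and 41.0% at inner ones.

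**Figure D3:**
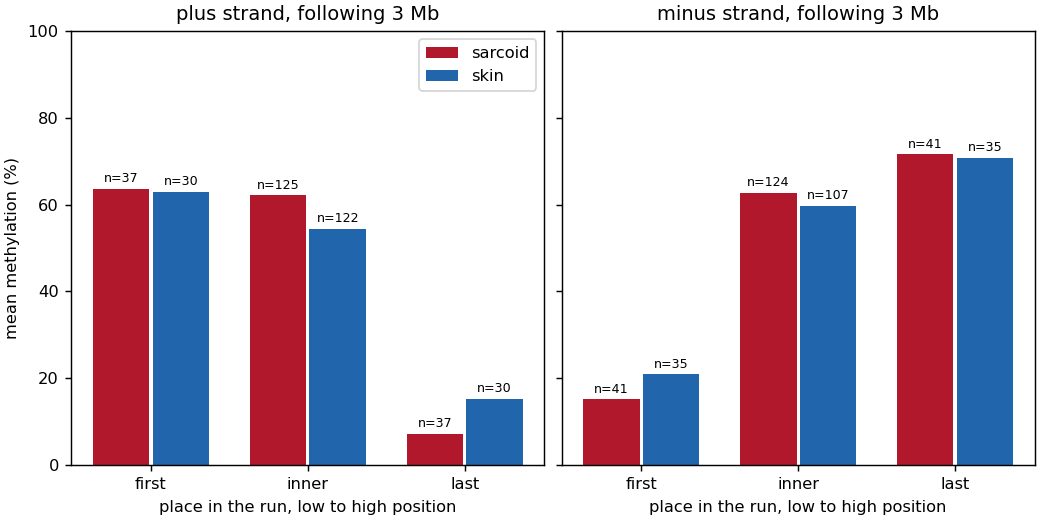
Mean methylation of cytosines in the sparse 3 Mb by their place in a run of at least 3 cytosines on 1 strand, in sarcoid (left bar of each pair) and skin (right bar), with the number of cytosines above each bar. The last cytosine of plus-strand runs (7.18% in sarcoid, 15.2% in skin) and the first of minus-strand runs (15.1% in sarcoid, 20.9% in skin) lie far below the others.

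Without these run-end cytosines the levels of the region were higher and its mean difference was smaller. In the sparse 3 Mb the means were then 58.0% in sarcoid and 59.2% in skin over 166 CpGs, a difference of -1.22 points. In the whole region they were 44.8% in sarcoid and 45.0% in skin over 887 CpGs, a difference of -0.26 points. The arms moved less, to 39.99% in sarcoid and 41.2% in skin. Of the 52 CpGs of the sparse part with 10 reads on each strand in both libraries, 11 had strands at least 30 points apart in sarcoid and 12 in skin. In the first megabase 30 of 267 did so in sarcoid and 24 in skin.

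Mean levels of the region were lower in the classes listing over 10 CpGs per tile, and the mean difference between libraries lay within 3 points in every class of density. In tiles of 1 kb listing 5 or fewer CpGs, the 241 members averaged 59.6% in sarcoid and 60.8% in skin, a difference of -1.21 points. In such tiles the difference was -1.76 in the flanks, -1.82 in the arms and -1.97 in the genome. In tiles listing 6 to 10 CpGs the 269 members averaged 57.0% in sarcoid and 57.3% in skin. Tiles listing 11 to 20 CpGs averaged 43.5% in sarcoid and 46.0% in skin over 223 members, a difference of -2.44 points, against -1.37 in the arms. In 9 tiles listing 21 to 40 CpGs the 184 members averaged 6.72% in sarcoid and 5.77% in skin.

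In tiles listing over 40 CpGs the 81 members averaged 21.3% in sarcoid and 18.8% in skin, above the class before it, a difference of 2.53 points, against -0.81 in the arms and -0.27 in the genome. It rested on 2 tiles, of which the one from 26135001 differed by 4.63 points over 45 CpGs (11.9 points on summed reads) and the one from 26210001 by -0.09 points over 36. In the first megabase the sparsest class, 5 or fewer, differed by 0.28 points over 149 members. In the following 3 Mb it differed by -3.61 points (median -1.14) over 92 members, from 33 tiles. In tiles listing 6 to 10 CpGs the first megabase differed by -0.61 points over 195 members. The following 3 Mb differed there by 0.37 points over 74 members.

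**Figure D4:**
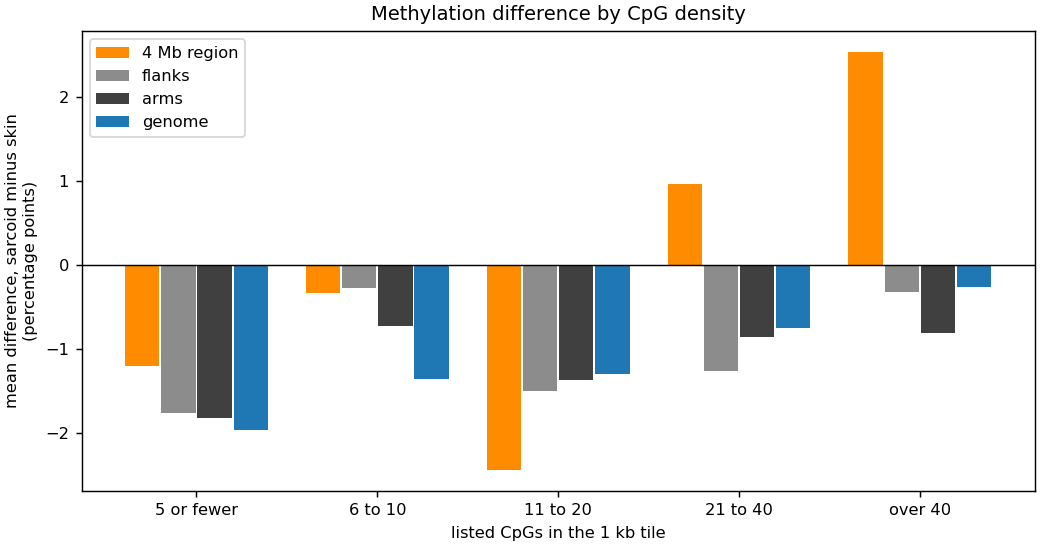
Mean difference in methylation, sarcoid minus skin, by the number of CpGs listed in the 1 kb tile, for the 4 Mb region, its flanks, the arms and the genome. The region differs by -1.21 points in the sparsest class and by 2.53 points in the densest, where it has 2 tiles only.

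Of the 998 members, 21 were called between the libraries, 11 lower in sarcoid and 10 higher. A call needed a difference of at least 25 points and, from Fisher's exact test (two-sided, on reads), a Benjamini-Hochberg q below 0.01 over the whole genome. The share called was 2.10% in the region, 2.12% in the flanks, 2.20% in the arms and 2.84% over the genome (background of calls in either direction). Calls lower in sarcoid made up 1.10% of members, against 1.89% over the genome, and calls higher in sarcoid 1.00%, against 0.954%. The share of calls in the region was thus near that of the rest of chromosome 11. At an unadjusted p below 0.05 there were 100 members (10.02%), against a background of 13.7%.

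All 10 CpGs called higher in sarcoid lay in the first megabase, in 4 tiles, and CpGs of 1 tile share reads. The first megabase also held most members, 806 against 192 in the sparse part. Its share called higher in sarcoid was 1.24%, against 0.954% over the genome. The place of these 10 calls thus says little of where rises lie in the region. The largest rise among members was at 26185759, with 15 of 19 reads methylated in sarcoid (78.9%, 56.7 to 91.5) and 5 of 27 in skin (18.5%, 8.18 to 36.7; q = 0.00328, Fisher's exact test). Its neighbours at 26185785 and 26185824 were at 36.8% and 21.1% in sarcoid, against 3.70% each in skin, and were not called. They too had 19 reads in sarcoid and 27 in skin, all on the minus strand and within the length of 1 read. The tile's other member, 26185330, hardly differed, at 5.56% over 36 reads in sarcoid and 3.80% over 79 in skin. In the same tile 26185394 had too few reads to be a member, with 7 of 8 methylated in sarcoid and 2 of 12 in skin. At 26185358, also not a member, 0 of 8 were methylated in sarcoid and 0 of 13 in skin, which allow up to 37.5% and 23.1%. At 26050939 the level was 86.0% in sarcoid and 37.2% in skin, and at 26050933 93.0% in sarcoid and 47.7% in skin. At 26050988 all 22 reads in sarcoid were methylated (100%), against 31 of 53 in skin (58.5%). At 26135131 the level was 70.4% in sarcoid and 33.6% in skin. Its tile listed 45 CpGs, the most of the region along with the tile from 26210001.

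The 11 CpGs called lower in sarcoid lay in 8 tiles. The largest fall was at 26331343, with 1 of 11 reads methylated in sarcoid (9.09%, 1.62 to 37.7) and 20 of 21 in skin (95.2%, 77.3 to 99.2; q = 2.07e-04, Fisher's exact test). At 26331233, in the same tile, 3 of 11 reads were methylated in sarcoid and 30 of 34 in skin. The CpGs between these positions did not fall: 26331237, 26331292 and 26331294 were at 100% in sarcoid and at 88.2%, 87.3% and 98.2% in skin. The low levels in sarcoid were thus at single CpGs beside fully methylated ones.

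Among the other falls named, the level at 26199459 was 32.8% over 61 reads in sarcoid and 82.3% over 79 reads in skin. At 29976193, close to the end of the region, it was 20.6% over 34 reads in sarcoid and 73.0% over 63 reads in skin. Its neighbour at 29976181 was also called, at 26.5% in sarcoid and 68.3% in skin. At 29678765 the level was 33.3% in sarcoid and 94.7% in skin, but the minus strand, with 0 of 5 reads methylated (which allows up to 60%), was listed in sarcoid only. On the plus strand alone 8 of 19 reads were methylated in sarcoid and 18 of 19 in skin. The other 9 members of that tile, among them 29678772 at 87.5% in sarcoid and 78.9% in skin, were not called.

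**Figure D5:**
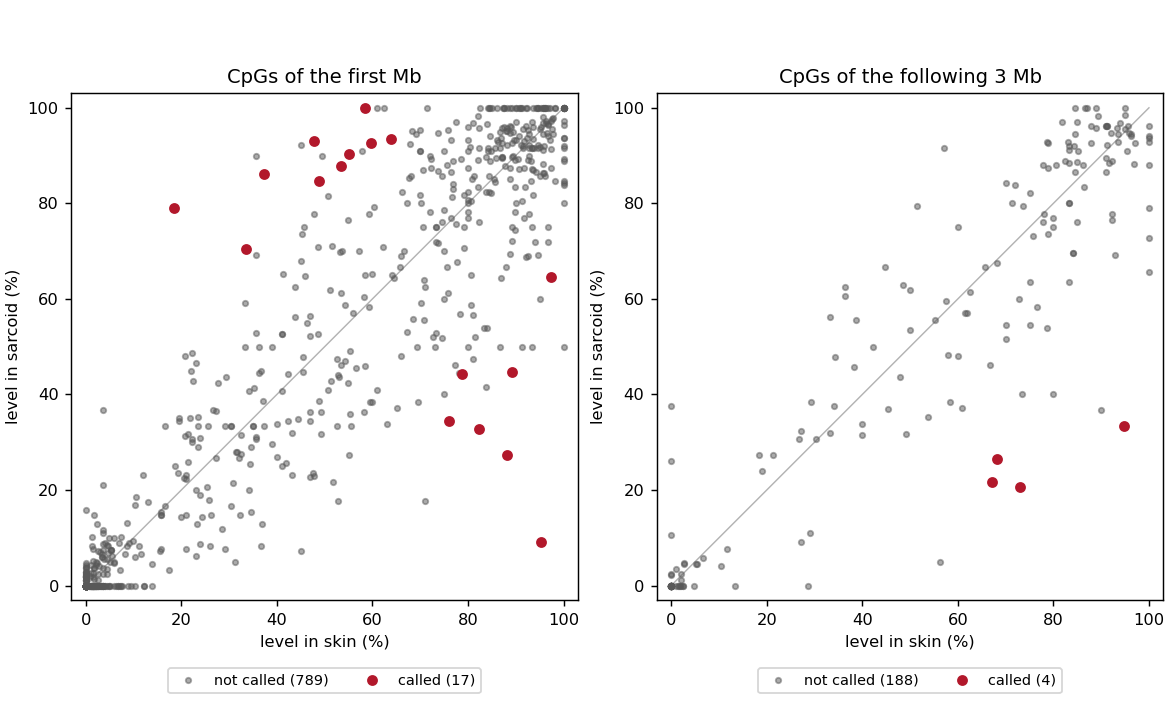
Level of each member CpG in sarcoid against its level in skin, for the first megabase (806 CpGs) and the following 3 Mb (192 CpGs), with CpGs called by Fisher's exact test in red. The first megabase holds 10 calls above the diagonal and 7 below it, and the following 3 Mb 4 calls, all below it.

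The sparse 3 Mb held 4 called CpGs of 192 (2.08%), 4 lower in sarcoid and 0 higher. Over the genome 2.84% were called, 1.89% lower and 0.954% higher, so the count in the sparse part is near the background and too small to read a direction from. Of the 67 core members 0 were called and 3 had an unadjusted p below 0.05 by Fisher's exact test, against 13.7% over the genome, and so few members say little of the core. The 4 called were the CpGs at 27056314, 29678765, 29976181 and 29976193. Of these, 27056314 was read on the plus strand alone and was the last listed CpG of its tile. Calls were not counted again without run-end cytosines. Among the calls elsewhere in the region, 26185759 was the first cytosine of a minus-strand run. Pearson's correlation of the libraries over CpGs, which are not independent of each other, was 0.924 in the sparse part, 0.941 in the first megabase and 0.925 in the arms.

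Tiles of 1 kb with at least 3 members were tested on summed reads by the same rule. A read that spans more than 1 CpG enters more than 1 time, so p-values are too small and intervals too narrow. Of 126 such tiles 2 were called (1.59%), both higher in sarcoid and 0 lower, against a background of 6.38% in the genome and 5.94% in the arms. In the genome 2.28% of tiles were called higher and 4.1% lower. At an unadjusted p below 0.05 there were 29 of the 126. The share of tiles at that threshold was not counted in the arms or the genome. Neither this count nor that of the sparse part below can thus be called high or low. Limited to CpGs with at least 10 reads on each strand and strands less than 30 points apart, 34 tiles were left and 1 was called, lower in sarcoid. Neither of the 2 called tiles kept 3 such CpGs. They were thus not tested under that limit, which says nothing of their calls. The sparse 3 Mb held 30 tested tiles and 0 calls, with 1 tile at an unadjusted p below 0.05 by Fisher's exact test. In 99 of the 126 tiles the levels of the libraries lay less than 10 points apart.

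The first called tile ran from 26050001 to 26051000 and had 7 members of 24 listed CpGs. Its level was 84.6% (78.4 to 89.3) over 169 reads in sarcoid and 52.2% (46.5 to 57.8) over 297 reads in skin (q = 1.59e-11, Fisher's exact test), with 6 CpGs higher and 0 lower. The second called tile, from 26519001 to 26520000, listed 3 CpGs only. Its level was 90.2% (83.7 to 94.3) over 123 reads in sarcoid and 56.2% (50.1 to 62.1) over 260 reads in skin (q = 7.15e-11). These 3 CpGs were read on the minus strand alone and span 26519154 to 26519190, within the length of 1 read, so the same reads cover them all.

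The densest tiles of the region were mostly unmethylated in both libraries. Of 11 tiles with over 20 listed CpGs, 10 of them in the first megabase, 9 had a mean of at most 20% in both. The tile from 26210001 averaged 0.15% in sarcoid and 0.24% in skin over 36 CpGs, and that from 26109001 0.37% in sarcoid and 0.36% in skin over 32. The densest tile of the sparse part, from 29707001 to 29708000, listed 22 CpGs and averaged 0.21% in sarcoid and 0.16% in skin over 11.

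The tile from 26135001 to 26136000 was an exception, with 45 CpGs of unlike levels within 1 kb. Its mean was 38.2% in sarcoid and 33.6% in skin. The level was high at its start, as at 26135024 with 100% over 62 reads in sarcoid and 84.5% over 58 in skin. It was intermediate at 26135410, with 8 of 30 reads methylated in sarcoid and 26 of 81 in skin. At its end, as at 26135759 with 0 of 49 reads in sarcoid and 0 of 43 in skin, which allow up to 6.12% and 6.98%, it was at 0. The CpGs called higher in sarcoid at 26135040, 26135103 and 26135131 lay in its first part.

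The depth ratio of the whole region was close to that of the arms, and that of the sparse part was less negative, though it too had fewer reads in sarcoid. Summed over CpGs listed in both libraries, reads of the region came to 37385 in sarcoid and 53414 in skin. This was a log2 ratio of -0.51, against -0.55 in the arms. The first megabase had -0.57. The sparse 3 Mb had 6877 reads in sarcoid and 8040 in skin, a ratio of -0.23, which was 0.33 above the arms. The windows starting at 28000001 and 29000001 had ratios of 0.14 and -0.03, ranks 1 and 3 of 61 on the chromosome.

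Sparse windows had higher ratios elsewhere too. Relative to their own chromosome, the 542 windows of 50 to 150 listed CpGs had a median log2 ratio of 0.29, and the middle 50% ranged from 0.10 to 0.53. The windows of the region starting at 27000001, 28000001 and 29000001 had 0.02, 0.68 and 0.52 on that scale, and 61 of the 542 lay above the one starting at 28000001. The ratio also followed density within the arms, at -0.43 in tiles listing 5 or fewer CpGs and -0.68 in those listing over 40. In tiles of 5 or fewer CpGs the sparse part had -0.17, and in tiles of 6 to 10 it had -0.04, against -0.49 in the arms. In denser tiles, of which the sparse part had 3, it had -0.53 (11 to 20 CpGs) and -0.98 (21 to 40), against -0.59 and -0.64 in the arms. With 1 library per tissue, the tissue and the library cannot be told apart in such ratios.

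CpGs listed in only 1 library were also more frequent in the sparse part. Of its 341 listed CpGs, 41 (12.02%) were listed in sarcoid only and 40 (11.7%) in skin only. In the arms 3.64% were listed in sarcoid only and 10.4% in skin only. In the region, CpGs listed in both libraries had at least 5 reads in each, so a CpG missing from a library may have had fewer reads there.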

How the data were processed

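Per the labels' protocols, DNA was isolated from tissue, RRBS libraries followed Illumina's guide, and reads were single-end of 75 bp. The submitters' processing notes name BSMAP, FastQC and methylKit without versions; aligner settings and build are not given in the sources used here. Per the file headers, the deposited tables give a read count (coverage) and the percent of C for each cytosine on its strand. A deposited table of chromosome 1 was not used.

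Methylated reads were coverage times percent, rounded. Minus-strand positions were moved by 1 and summed with the plus strand. A CpG entered with 10 or more reads in each library. Fisher's exact test (two-sided) was run on all such CpGs of the genome, and on 1 kb tiles with 3 or more of them, and p-values were adjusted by the Benjamini-Hochberg method. Calls needed q below 0.01 and 25 points. No upper coverage limit was set. Alternatives covered depth, strands, thresholds, tile size, window and weights. Sites named by rule are the called tiles, the 5 largest falls and 5 largest rises among called CpGs, the 3 densest tiles, the 3 widest gaps, the 5 core tiles with most members and all 250 kb bins. Others (neighbouring CpGs, remaining calls of the sparse part, the tiles from 29707001 and 28402001) were chosen after their values were seen. The region, its members and these rules were chosen with earlier results of these data known. The code was tested on simulated data. Versions were SciPy 1.17.1, NumPy 2.4.6 and numba 0.67.0, with pandas 2.3.3 and matplotlib 3.10.9 under Python 3.11.15.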

Additional observations from a re-analysis of the deposited data

How the results depend on the processing

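No paired analysis was possible because each tissue had 1 library, and no replicate could be left out. The mean difference of the region, -0.55 points, changed sign with at least 20 reads per CpG (0.21), with CpGs read on both strands less than 30 points apart (0.42) and weighted by reads (0.40). It was -1.73 points in a window of 6 Mb. The 21 called CpGs became 9 at q below 0.001, 13 at a difference of at least 40 points and 6 of the 277 CpGs with strands less than 30 points apart. The 2 called tiles became 4, of them 1 lower in sarcoid, with tiles of 500 bp. With that limit on strands 1 tile was called, lower in sarcoid, and neither of the 2 had enough CpGs left to be tested. Mean levels were 38.7% in sarcoid and 38.5% in skin at 20 reads, and 44.3% in sarcoid and 44.7% in skin at 5 reads. Without run-end cytosines, an alternative chosen after seeing the data, they were 44.8% in sarcoid and 45.0% in skin. The density of 365 listed CpGs per Mb was 320 for CpGs in both libraries and 249.5 at 10 reads. The depth ratio of the region was 0.04 (log2) above the arms and -0.086 relative to the genome. Leaving out the 0.1% of highest coverage removed 0 members. The other 15 of 33 alternative values stayed close to the first. The cause of these changes was not tested. Coverage limits what can be called: CpGs of the sparse part had medians of 25 reads in sarcoid and 33 in skin.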
